A study of Homo sapiens with 14 samples.

Results

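The genomic neighbourhoods of TCF7, LEF1 and VDAC1 were examined in CUT&Tag peak lists from Jurkat cells, an established human line of T cell acute lymphoblastic leukaemia. TCF7 and LEF1 encode the HMG-box DNA-binding factors of the Wnt pathway that are most closely tied to T cells. VDAC1 is the neighbour of TCF7 on chromosome 5. The members were all peaks within the RefSeq GRCh38 bodies of these 3 genes and 100 kb on each side, and they numbered 390 of 273342 peaks over 14 lists. The genes were selected on H3K27ac peak width and signal in these same lists, which show a wide domain on chromosome 5 between 134.07 and 134.15 Mb, so H3K27ac is described here without a test.

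CUT&Tag locates a protein or histone mark by using an antibody to bring a transposase to it, which tags the DNA close by. SATB1 was mapped in cells with the lentiviral control shRNA shCtrl (2 libraries). H3K27ac was mapped in shCtrl and in shSATB1 cells (2 libraries each), and CTCF in shCtrl and in shSATB1 cells (3 libraries each). Matrin 3 was mapped in 2 libraries with no shRNA on the label. All cells were Jurkat, a single tumour line, and no label gives replicates a culture of their own, so the p-values reflect library-to-library spread that may be technical only. No list measures SATB1 after the knockdown or the expression of any gene, so the depletion of SATB1 was not checked here. The question was how chromatin marks at these loci relate to SATB1 and to its knockdown.

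TCF and LEF proteins bind Wnt-responsive elements, where they recruit TLE corepressors in the absence of signalling and the coactivator beta-catenin in its presence. In the thymus, TCF7 and LEF1 act in T lineage commitment and maturation. VDAC1 encodes a channel of the mitochondrial outer membrane that passes metabolites and binds hexokinase and BCL2 family proteins. H3K27ac marks active promoters and enhancers, and wide stretches of it often lie at genes of cell identity. CTCF holds loop anchors and insulators, SATB1 is a chromatin organiser abundant in T cells, and Matrin 3 is a nuclear matrix protein.

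The promoters are shown because the marks at them differed between starts of the same gene. Each is 300 bases long, from 250 before to 50 after a start site, from the RefSeq table of GRCh38.p14, read 5′ to 3′ on the gene's own strand. Capitals mark the letters of a searched motif. The LEF1 promoter is chr4:108166252-108166551 (minus strand). The TCF7 promoters are chr5:134115363-134115662 and chr5:134123368-134123667 (plus strand). The VDAC1 promoters shown are chr5:134070962-134071261 and chr5:134004926-134005225 (minus strand). The table also holds VDAC1 promoters at chr5:134004719-134005018 and chr5:134004485-134004784. They are not shown and overlapped peaks of the same lists as chr5:134004926-134005225.
LEF1: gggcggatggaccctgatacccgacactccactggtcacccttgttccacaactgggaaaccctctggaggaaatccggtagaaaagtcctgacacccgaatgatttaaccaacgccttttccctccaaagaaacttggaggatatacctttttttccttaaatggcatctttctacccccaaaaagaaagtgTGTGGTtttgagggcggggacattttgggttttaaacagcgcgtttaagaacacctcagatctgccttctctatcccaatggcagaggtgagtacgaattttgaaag
TCF7 upstream start: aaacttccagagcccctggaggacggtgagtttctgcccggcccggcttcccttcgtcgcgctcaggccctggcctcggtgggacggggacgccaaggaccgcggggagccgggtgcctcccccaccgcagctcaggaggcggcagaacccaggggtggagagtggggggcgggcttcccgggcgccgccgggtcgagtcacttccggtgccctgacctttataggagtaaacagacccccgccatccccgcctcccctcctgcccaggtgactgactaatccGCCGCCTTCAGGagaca
TCF7 downstream start: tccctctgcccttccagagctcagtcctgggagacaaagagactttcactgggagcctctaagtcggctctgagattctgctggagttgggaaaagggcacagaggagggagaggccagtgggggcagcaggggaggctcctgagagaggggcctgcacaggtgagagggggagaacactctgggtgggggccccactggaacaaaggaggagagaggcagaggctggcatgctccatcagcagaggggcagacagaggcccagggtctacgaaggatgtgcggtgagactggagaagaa
VDAC1 start within the domain: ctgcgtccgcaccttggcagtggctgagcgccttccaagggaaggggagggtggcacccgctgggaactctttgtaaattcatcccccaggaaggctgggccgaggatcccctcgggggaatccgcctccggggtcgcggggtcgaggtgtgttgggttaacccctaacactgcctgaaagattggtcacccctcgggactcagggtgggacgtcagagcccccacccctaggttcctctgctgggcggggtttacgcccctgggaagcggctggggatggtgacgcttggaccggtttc
VDAC1 distal start: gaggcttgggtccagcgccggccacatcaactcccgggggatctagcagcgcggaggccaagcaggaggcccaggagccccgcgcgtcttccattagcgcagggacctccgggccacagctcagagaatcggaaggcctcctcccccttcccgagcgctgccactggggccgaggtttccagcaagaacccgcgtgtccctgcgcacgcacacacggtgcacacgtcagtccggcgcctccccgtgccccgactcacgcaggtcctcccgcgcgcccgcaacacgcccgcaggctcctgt

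The LEF1 promoter overlapped a peak in every list except that of Matrin 3 replicate 2. The upstream TCF7 promoter overlapped H3K27ac in all 4 libraries and CTCF in the 3 shCtrl libraries, and it overlapped no peak of CTCF in shSATB1, of SATB1 or of Matrin 3. The downstream TCF7 promoter, 8 kb further into the gene, overlapped H3K27ac in all 4 libraries, CTCF in 3 shCtrl and 2 shSATB1 libraries, and Matrin 3 replicate 1. The VDAC1 start near the edge of the domain interval lay in a gap and overlapped no peak in any list, whereas the distal VDAC1 start held H3K27ac and CTCF in every library of those targets and Matrin 3 replicate 1. SATB1 peaks therefore touched the promoter of LEF1 and none of the other 4 shown.

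Motifs were searched on both strands as a description of the letters. TGTGGT, the RUNX core, occurred in the LEF1 promoter and in 13.1% of 34961 promoters of the same length. Part of the CTCF consensus (CC, 3 free bases, AG, 2 free bases, GGC) occurred in reverse complement in the upstream TCF7 promoter and in 10.6% of all promoters. CTTTGAT, the TCF/LEF core, and AATATATTT, from a SATB1-bound unwinding element, were in none of the 5 windows shown and in 2.63% and 0.481% of all promoters.

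TCF7 (chr5:134108218-134148210) and VDAC1 (chr5:133971871-134114540) are adjacent on opposite strands, and their annotated bodies share 6323 bp. Their windows therefore overlap and are not independent, and the union of 376.34 kb is called the TCF7 and VDAC1 locus. LEF1 spans chr4:108047548-108168932 and its window 321.385 kb. The other protein-coding genes touching these windows were C5orf15, SKP1 (a subunit of ubiquitin ligases), PPP2CA (a catalytic subunit of protein phosphatase PP2A) and LOC124901069 on chromosome 5. On chromosome 4 they were HADH (a mitochondrial fatty acid oxidation enzyme), CYP2U1 (a cytochrome P450) and LOC124900752. No peak crossed a window edge. The nearest peaks outside lay 0.984 kb before the chromosome 5 window and 0.87 kb after the LEF1 window, at the 7.11 and 1.58 percentile of maximum signal in their lists, and the nearest inside lay 20.1 kb or more from an edge.

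Whole lists set limits on every comparison. CTCF lists held 31141 to 32540 peaks in shCtrl and 14695 to 20284 in shSATB1, H3K27ac lists 15972 to 17925, SATB1 lists 14726 and 15210, and Matrin 3 lists 24566 and 2105. The CTCF lists covered 90.1 to 102 Mb in shCtrl and 24.5 to 40.8 Mb in shSATB1. Read depths are unknown and the signal is not scaled between libraries, so signal was used for ranks and percentiles within a list, 100 being the highest. As a check of the cell type, 11 of 12 T cell marker genes had H3K27ac in both shCtrl libraries within 2 kb of an annotated end, against 5 of 12 B cell and 1 of 12 myeloid markers and 38.8% of 19974 protein-coding genes.

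The H3K27ac domain covered nearly all of TCF7 and the adjoining part of VDAC1. Of the 80 kb interval, H3K27ac peaks covered 74.7 and 76.0 kb under shCtrl, and 76.0 and 68.3 kb under shSATB1. The mean difference of -3.15 kb came from shSATB1 replicate 2, without which the shSATB1 library lay 0.69 kb above the shCtrl mean. Within the TCF7 body H3K27ac covered 96.4% and 100% in shCtrl and 96.7% and 88.4% in shSATB1. The VDAC1 body was covered to 43.8% and 42.7% in shCtrl and 43.5% and 41.2% in shSATB1. LEF1 was covered to 27.8% and 30.7% in shCtrl and 28.7% and 27.6% in shSATB1, with the arms overlapping.

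How continuous the domain appeared differed between replicates. The widest single peak in it was 44.0 and 76.9 kb in shCtrl and 71.8 and 33.1 kb in shSATB1, and these ranked 16, 2, 3 and 18 by width in their lists. Once peaks were joined across gaps of up to 5 kb, the block measured 82.7, 83.1, 82.1 and 75.5 kb and ranked 11, 9, 9 and 10. The wide and the split calls thus occurred in both arms. CDK6, a cell cycle kinase gene, held the widest H3K27ac peak in all 4 lists, at 115.0, 115.2, 116.8 and 99.7 kb, and had the longest H3K27ac-covered window of all genes. By the H3K27ac-covered length of the window, TCF7 ranked 16 to 23, VDAC1 15 to 22 and LEF1 54 to 61 of 19974 genes over the 4 lists. BCL11B, another T lineage factor, ranked 2001 to 3290 in a window that ends 100 kb from its body. TCF7, VDAC1 and LEF1 were selected on H3K27ac, so their ranks are a description only.

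The highest H3K27ac point of the locus was at the same place in all 4 libraries. It lay between 134090764 and 134090838 on chromosome 5, within VDAC1 by annotation and 24.8 kb before the upstream TCF7 start. Its rank by maximum signal was 145 and 130 in shCtrl and 50 and 31 in shSATB1. A SATB1 region, chr5:134090146-134091200, spanned this point. A separate H3K27ac block of 16161 bp lay further into VDAC1 (chr5:134039435-134055595), called in all 4 libraries at the 93.4 to 97.6 percentile of maximum signal.

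**Figure D1:**
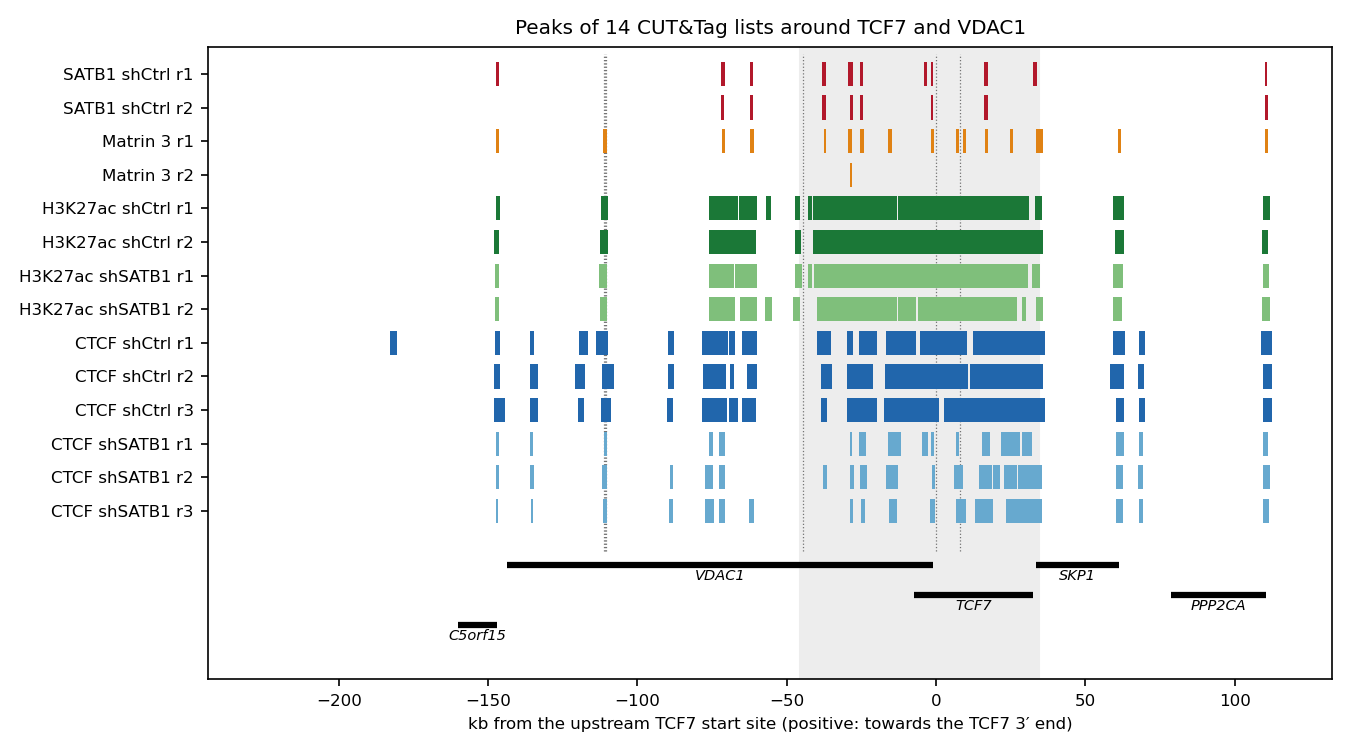
Peaks of the 14 lists around TCF7 and VDAC1, plotted by distance in kb from the upstream TCF7 start site, with 1 row per library (r is the replicate), coloured by target and shRNA. Black bars are gene bodies, dotted lines the start sites of TCF7 and VDAC1 and the grey band the 80 kb interval of the H3K27ac domain, which H3K27ac peaks cover to 85.4% or more in each of the 4 libraries.

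The strongest SATB1 sites of the locus lay inside the domain. The locus held 11 and 8 SATB1 peaks in the 2 lists, which covered 12.9 and 8.61 kb. The 2 SATB1 lists share exact start positions for 6001 peaks, 40.8% of the shorter list, so they are treated as 1 sample and regions called in both are described. There were 8 such regions, 4 of them within 40 kb before the upstream TCF7 start. The strongest, chr5:134086080-134087793, lay inside VDAC1 by annotation, 28.5 kb before that start, and ranked 112 and 150 by maximum signal. That point was the highest SATB1 point of the locus in both lists, and the single Matrin 3 peak that replicate 2 had in either locus (chr5:134086850-134087403) lay within it.

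The other SATB1 regions of the locus were weaker. The region at the highest H3K27ac point stood at the 94.1 and 93.4 percentile of maximum signal. A region at the annotated 5′ end of VDAC1 (chr5:134114067-134114751) stood at the 76.1 and 84.2 percentile. It also lay within the annotated TCF7 body, which begins at 134108218, and 1.2 kb before the upstream TCF7 start. A region further into TCF7 (chr5:134131635-134133116) stood at 58.6 and 57.9. No SATB1 region of both lists lay within 2 kb of an annotated end of the TCF7 body. The remaining 4 regions, at the PPP2CA end and in VDAC1, lay between the 24.8 and 54.3 percentile. C5orf15, SKP1 and TCF7 had a SATB1 peak at an end in replicate 1 alone. At TCF7 this was the 3′ end, where the peak chr5:134148008-134149539 (13.0 percentile) also reached the SKP1 end.

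All 8 SATB1 regions of the TCF7 and VDAC1 locus overlapped H3K27ac in both shCtrl libraries, against 74.8% of 13072 SATB1 regions. All 8 overlapped CTCF in at least 2 of 3 shCtrl libraries and Matrin 3 replicate 1, where the shares over all SATB1 regions were 70% and 82.9%. At the LEF1 locus 15 of 17 regions overlapped H3K27ac, 13 overlapped CTCF and 14 overlapped Matrin 3 replicate 1. The 2 LEF1 regions with none of these marks lay 13.1 kb inside the gene from its start (chr4:108152190-108154152) and 65.1 kb beyond the start (chr4:108230789-108231944). These few regions share libraries and neighbourhoods, and no test was made of their shares. The genes were selected on H3K27ac in these same lists, so a high overlap with H3K27ac follows in part from that choice.

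LEF1 carried SATB1 at sites along its body and in a group around its start. The window held 23 and 20 SATB1 peaks, which covered 37.8 and 33.5 kb, and 17 regions in both lists. The median gene window held 1, the TCF7 and VDAC1 windows 8 and 7, BCL11B 2 and CDK6 43. Windows differ in length, and per 100 kb the values were 5.29 for LEF1, 3.33 for TCF7, 2.04 for VDAC1, 9.96 for CDK6 and 0.487 for the median gene. Within 15 kb of the LEF1 start both lists had 6 SATB1 peaks, which covered 12.9 and 11.5 kb of the 30 kb.

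The strongest LEF1 region (chr4:108170152-108173778) lay beyond the start, over the divergent lncRNA LEF1-AS1, at the 93.4 and 90.6 percentile of maximum signal. Its highest points in the 2 lists, which are treated as 1 sample, were 3 bp apart. Over the regions of the LEF1 locus this distance ranged from 0 to 1776 bp. Regions at 83.1 and 78.1 (chr4:108168032-108169590), 83.1 and 85.4 (chr4:108159519-108162053) and 83.1 and 81.4 (chr4:108080545-108081813) followed, the last deep inside the gene. The highest H3K27ac point of the LEF1 locus was at the LEF1-AS1 side in both shSATB1 libraries and shCtrl replicate 1, and just beyond the end of HADH in shCtrl replicate 2. LEF1 thus had more SATB1 regions than the TCF7 and VDAC1 locus, and its strongest one held a lower place in the lists.

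**Figure D2:**
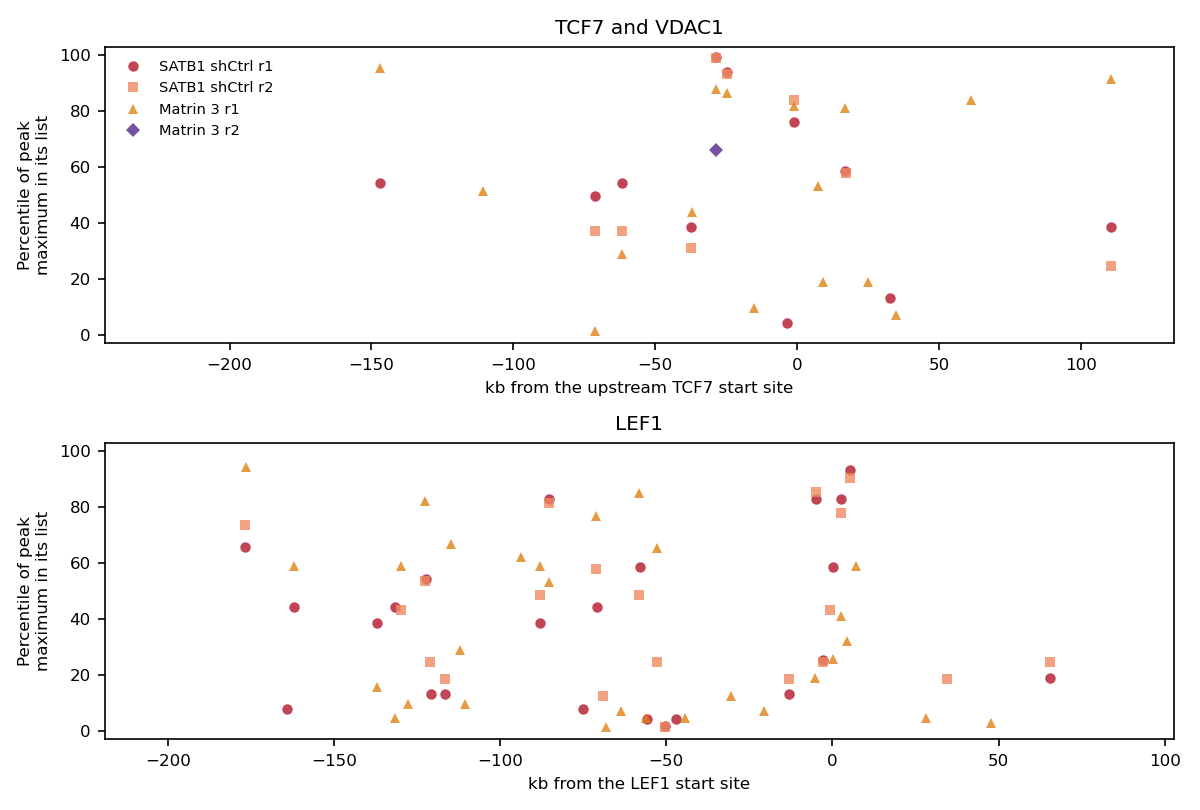
Each point is a SATB1 or Matrin 3 peak, placed on the horizontal axis by the distance of its maximum in kb from the upstream TCF7 start (top) or the LEF1 start (bottom) and on the vertical axis by the percentile of its maximum signal in its own list. The highest SATB1 points lie 28.5 kb before the upstream TCF7 start (99.3 and 99.0 percentile) and 5.3 kb beyond the LEF1 start (93.4 and 90.6).

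Matrin 3 could be described from replicate 1 only, because replicate 2 had 2105 peaks in all, 1 of them in these loci. Replicate 1 had 16 peaks in the TCF7 and VDAC1 locus and 29 in the LEF1 locus, which covered 18.2 and 51.1 kb. By number of peaks in the window LEF1 stood at the 99.9, VDAC1 at the 99.1 and TCF7 at the 98.8 percentile of genes. Windows differ in length, and those of VDAC1 and TCF7 overlap. Per 100 kb the values were 9.02 for LEF1, 5.83 for TCF7, 4.38 for VDAC1 and 1.40 for the median gene. The highest Matrin 3 points lay outside the 3 genes, at the C5orf15 end and at the HADH end, at the 95.3 and 94.5 percentile of maximum signal.

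CTCF peaks covered less of all 3 windows in shSATB1. In the TCF7 window they covered 89.8, 89.4 and 90.7 kb under shCtrl, against 32.8, 45.0 and 41.4 kb under shSATB1. Means were 90.0 ± 0.658 and 39.7 ± 6.27 kb (SD, n = 3 each), a ratio of 0.441. In the VDAC1 window the values were 98.6, 98.4 and 99.6 kb against 34.6, 46.5 and 42.5 kb, with means of 98.9 ± 0.609 and 41.2 ± 6.06 kb and a ratio of 0.417. The arms did not overlap in either window, and the shCtrl libraries lay within 2 kb of each other.

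LEF1 varied more among libraries and had the smallest ratio of the 3. CTCF peaks covered 53.6, 62.3 and 76.4 kb of its window in shCtrl and 10.1, 17.6 and 26.8 kb in shSATB1, with means of 64.1 ± 11.5 and 18.1 ± 8.41 kb (SD, n = 3 each) and a ratio of 0.283. Within the LEF1 body the values were 30.5, 35.2 and 47.0 kb against 2.56, 7.59 and 11.7 kb. Each of the 3 window differences had p = 0.1 in a two-sided exact permutation test, the smallest that 3 against 3 libraries allow, and 0.12 after Benjamini-Hochberg adjustment over 6 tests, so none passed 0.05. Non-overlap in this direction was found in 98.1% of 17617 genes with CTCF in every shCtrl library, and the median ratio was 0.373. The TCF7, VDAC1 and LEF1 ratios stood at the 68.7, 61.9 and 29.2 percentile of those genes, and the ratios of CDK6 and BCL11B were 0.299 and 0.449. As a share of each list's own covered length, the direction turned at TCF7 (0.0946% to 0.123%, p = 0.1, arms apart) and VDAC1 (0.104% to 0.128%, p = 0.3), in exact permutation tests with n = 3 each. At LEF1 the share was 0.0669% and 0.0529% (p = 0.2, exact permutation test). By this share 32.8% of genes were higher and 20.9% lower without overlap.

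**Figure D3:**
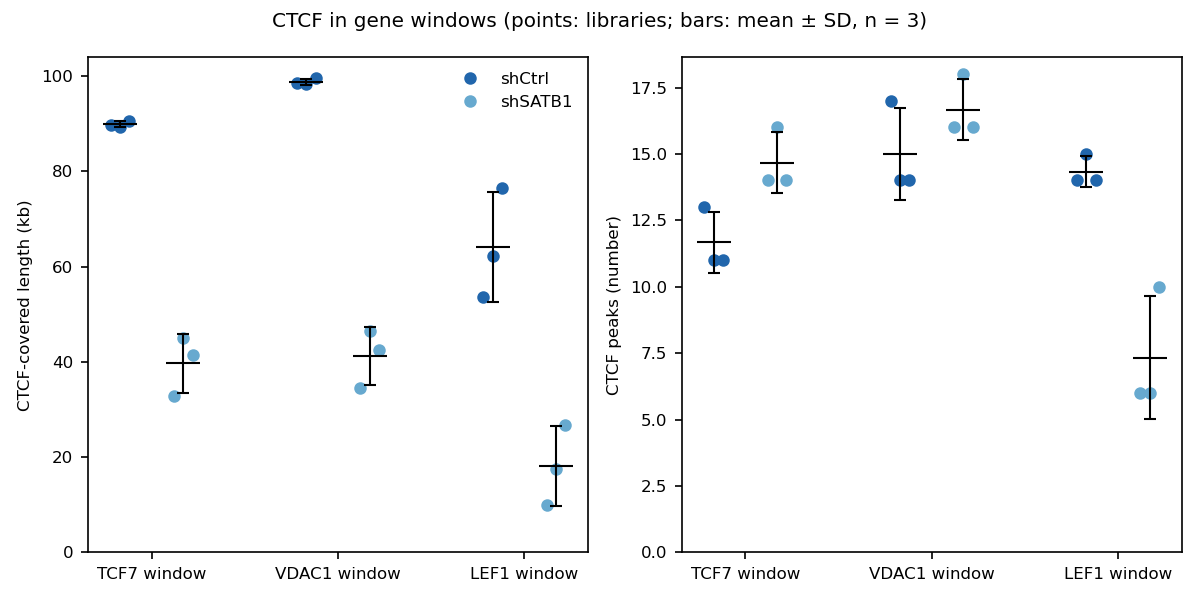
CTCF-covered length in kb (left) and number of CTCF peaks (right) in the windows of the 3 genes. Points are the 3 libraries per arm and bars the mean ± SD. Length was lower in every shSATB1 library, and peak number was higher in shSATB1 at TCF7 (14 to 16 against 11 to 13) and lower at LEF1 (6 to 10 against 14 to 15).

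The number of CTCF peaks went the other way at TCF7. Peaks in its window numbered 13, 11 and 11 under shCtrl, against 14, 16 and 14 under shSATB1, or 11.7 ± 1.15 against 14.7 ± 1.15 (SD, n = 3 each), a ratio of 1.26. The arms did not overlap, the two-sided exact permutation p was 0.1 and the adjusted p 0.12. Of the 17617 genes 0.681% had more peaks in every shSATB1 library than in any shCtrl library and 63.1% had fewer. The median ratio was 0.615, and TCF7 stood at the 99.5 percentile. In the VDAC1 window the numbers were 17, 14 and 14 against 16, 18 and 16, which overlapped (p = 0.3, exact permutation test). With lists cut to equal length CTCF length was still lower in every shSATB1 library at all 3 windows, as in 72.1% of genes. The TCF7 counts then were 12, 10 and 9 against 14, 15 and 12, where the arms met (8.0% of genes were higher and 5.27% lower without overlap). In the upper part of each list, 50% of its peaks by total signal, the mean difference turned from 3 to -1.67 peaks.

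In LEF1 the number of CTCF peaks was lower. Peaks in its window numbered 14, 15 and 14 under shCtrl, against 6, 6 and 10 under shSATB1, or 14.3 ± 0.577 against 7.33 ± 2.31, a ratio of 0.512 (p = 0.1, adjusted p = 0.12, exact permutation test, n = 3 each). Peak number was likewise lower without overlap in 63.1% of 17617 genes. The median ratio was 0.615, and LEF1 stood at the 36.7 percentile. With lists of equal length the counts were 5, 6 and 7 against 6, 5 and 3, so that the difference went from -7 to -1.33 peaks and the arms overlapped. The 2 loci were also compared within each library, a contrast added after seeing the data. The measure was the number of CTCF peaks in the TCF7 and VDAC1 locus divided by that in the LEF1 locus. This ratio was 1.29, 1.00 and 1.07 in shCtrl and 2.83, 3.17 and 1.70 in shSATB1 (exact permutation p = 0.1, adjusted over 2 ratios 0.2). For covered length it was 1.91, 1.63 and 1.34 against 3.60, 2.79 and 1.66, which overlapped (p = 0.2, exact permutation test).

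**Figure D4:**
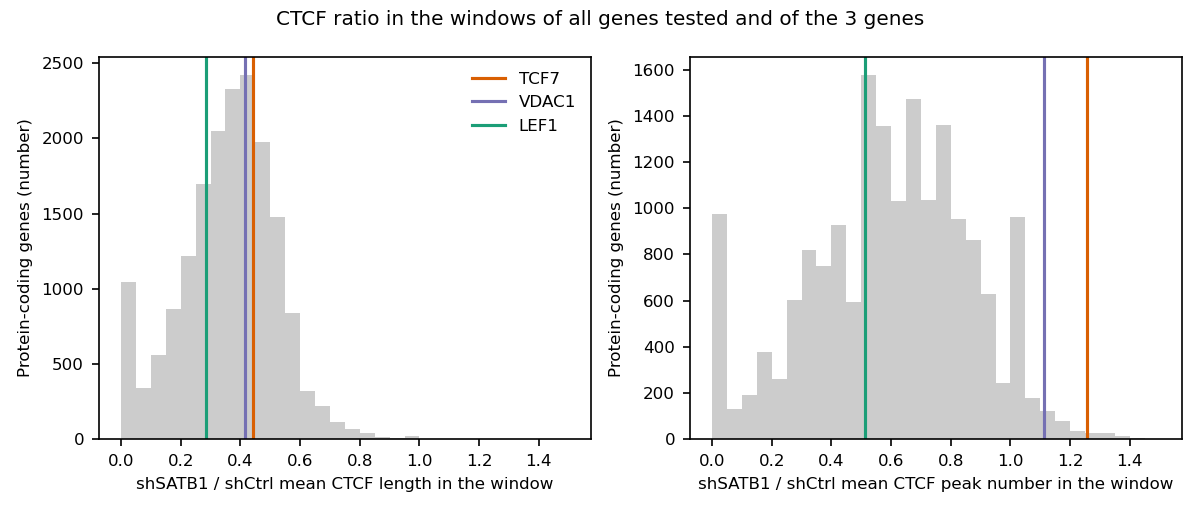
Distribution over 17617 protein-coding genes of the shSATB1 to shCtrl ratio of mean CTCF-covered length (left) and mean CTCF peak number (right) in the window of 100 kb on each side, with the 3 genes as lines; 25 genes with a number ratio beyond the axis are not drawn. TCF7 lies near the centre for length (0.441) and in the upper tail for number (1.26).

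The higher number at TCF7 lay where wide CTCF peaks were called as several narrower ones. One merged CTCF region (chr5:134098223-134152156, 53934 bp), spanning the VDAC1 end, all of TCF7 and the SKP1 end, was made of 3, 2 and 2 peaks under shCtrl, against 7, 7 and 5 under shSATB1. Over the 80 kb domain CTCF covered 60.4, 63.7 and 62.2 kb in shCtrl and 23.7, 31.3 and 27.3 kb in shSATB1. The widest CTCF peak there was 24.3, 28.0 and 33.9 kb, ranking 9, 4 and 2 by width in its list, against 6.23, 8.11 and 12.2 kb, ranking 42, 28 and 6. CTCF over TCF7 was thus among the widest of its list in both arms. The TCF7 body was covered to 91.8%, 99.0% and 96.1% in shCtrl and 40.3%, 50.7% and 50.4% in shSATB1.

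Much of the CTCF length at these loci lay inside H3K27ac peaks, taken as positions covered in both shCtrl H3K27ac libraries. The genes were selected on H3K27ac in these same lists, so a high share inside it follows in part from that choice. The shares are a description only. The share was 78.5%, 79.5% and 80.2% at the TCF7 and VDAC1 locus in shCtrl, and 29.9% to 32.1% over the whole CTCF lists. In shSATB1 it was 88.5%, 83.0% and 84.2% at the locus and 41.5% to 45.9% over the lists. The LEF1 locus had 74.0%, 64.9% and 63.8% in shCtrl and 100%, 81.0% and 80.4% in shSATB1. At the TCF7 and VDAC1 locus the shSATB1 to shCtrl ratio of CTCF length was 0.453 inside H3K27ac and 0.310 outside, at LEF1 0.356 and 0.135, and over the lists 0.480 and 0.286. Whether H3K27ac-associated signal enters the CTCF peaks was not tested.

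The positions of the highest CTCF points were shared by the arms. In the TCF7 and VDAC1 locus they lay 16.9 kb after the upstream TCF7 start in 4 of 6 libraries, shSATB1 replicates 1 and 3 among them, and 75.9 kb before it, in VDAC1, in the other 2, in 1 of them tied with another peak. The former point lay in the SATB1 region chr5:134131635-134133116, inside TCF7. At LEF1 the highest CTCF point was in HADH, 135.8 kb from the LEF1 start, in 5 of 6 libraries. It stood at the 85.2 to 86.7 percentile of maximum signal in shCtrl, and at 69.8 and 74.4 in 2 shSATB1 libraries.

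Losses of CTCF were counted by merged regions, and no region was gained (0.00879% in the series). Of 15 regions in the TCF7 and VDAC1 locus 9 were called in all 6 libraries and 2 in every shCtrl and no shSATB1 library, both inside VDAC1 (chr5:133994754-133999024 and chr5:134046244-134049350). Of 14 regions in the LEF1 locus 3 were called in all libraries and 2 were lost, both inside LEF1 (chr4:108069268-108073997 and chr4:108077795-108079788). Over all 34146 CTCF regions 22.7% were lost and 35.7% kept in all libraries. The second LEF1 loss overlapped a SATB1 region and the other 3 losses did not. Except at chr5:133994754-133999024, where the percentiles of maximum signal were 24.6 to 37.4, the lost regions stood at or below the 19.5 percentile in shCtrl. In bins of 1 kb, chosen after seeing the data, 27 of 134 CTCF bins at the TCF7 and VDAC1 locus and 23 of 101 at LEF1 were lost, against 20.9% of all CTCF bins. Where peaks had to cover at least 50% of a region, 5 regions were lost at each locus. Without shSATB1 replicate 3 the LEF1 losses were 5, and without shCtrl replicate 3 they were 4.

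The CTCF regions of LEF1 called in every library lay at its 2 ends and in HADH. They were chr4:108164941-108175665 at the 5′ end, chr4:108042335-108047486 just beyond the 3′ end and chr4:108027991-108037532 in HADH, and each overlapped SATB1 in both lists. The end regions stood at the 56.4 to 69.2 percentile in shCtrl and the 43.8 to 65.2 percentile in shSATB1. Of the 8 SATB1 regions of the TCF7 and VDAC1 locus 6 overlapped CTCF in all 3 shSATB1 libraries, against 4 of 17 at LEF1 and 39.2% of all SATB1 regions. Both remaining regions of the former lay inside VDAC1. The difference between the loci was not tested, since regions of a locus are not replicates.

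**Figure D5:**
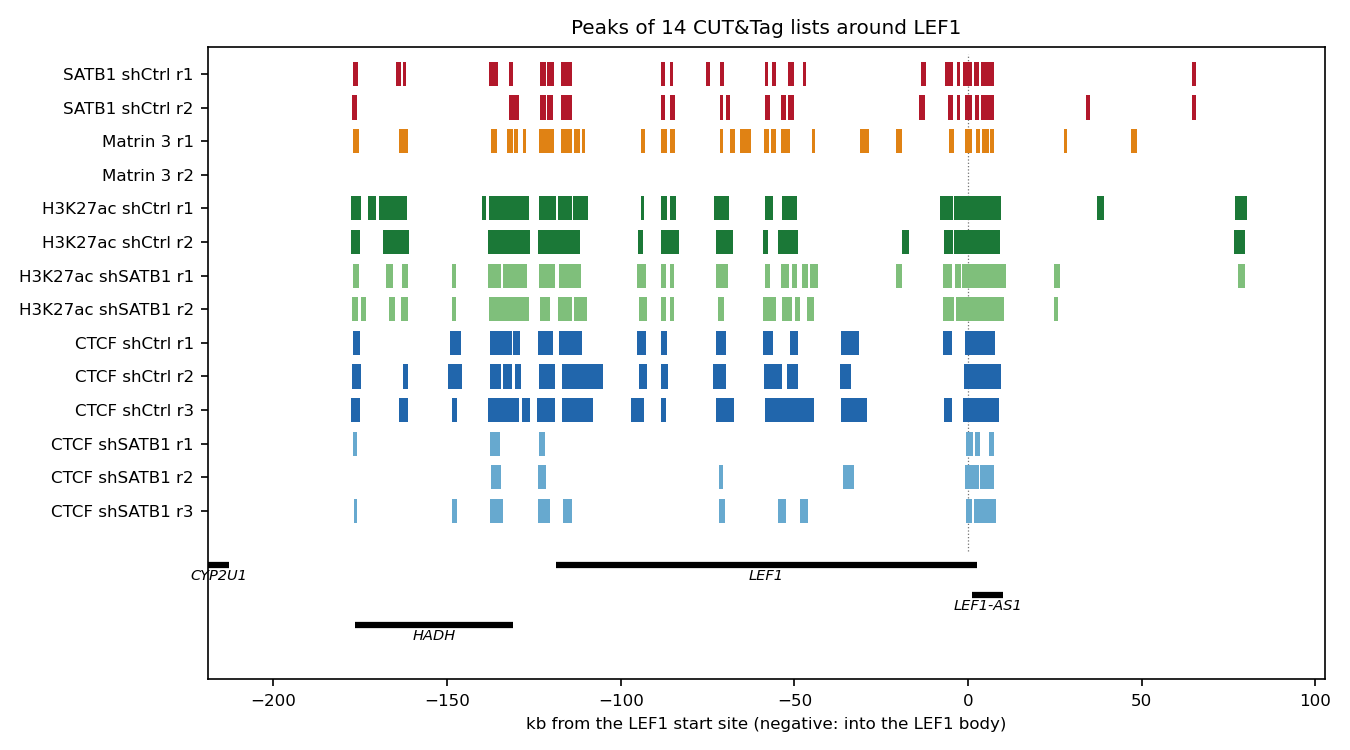
Peaks of the 14 lists around LEF1, plotted by distance in kb from the LEF1 start site (dotted line), with negative values running into the gene, 1 row per library and black bars for gene bodies. SATB1, Matrin 3 replicate 1 and H3K27ac lie at both ends of LEF1 and along it, and CTCF in shSATB1 (6, 6 and 10 peaks) is called at the ends in all 3 libraries.

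H3K27ac regions at TCF7 and VDAC1 were counted as a description, since the genes were selected on H3K27ac. Of 9 merged regions 7 appeared in each of the 4 libraries (59.7% in the series). None was lost or gained, against 5.95% lost and 2.62% gained of 20526 regions in the series. With only 9 regions such a count is near these shares. Among the 9 is a block of 76941 bp over the domain, which any peak inside it makes called. The H3K27ac-covered length of the locus was 104.3 and 104.1 kb under shCtrl, and 103.8 and 97.6 kb under shSATB1. At LEF1, 11 of 21 regions were called in all libraries, none was lost and 3 were called in both shSATB1 libraries alone. Without shCtrl replicate 2 the lost regions were 3, and without shSATB1 replicate 2 the gained ones were 5. The 3 regions gained with all libraries in use lay in HADH (chr4:108017622-108018842), inside LEF1 (chr4:108118466-108123157) and beyond the LEF1 start (chr4:108190951-108192705). All 3 were weak, at the 2.3 to 21.4 percentile of maximum signal, and none overlapped a SATB1 region of both lists. In bins of 1 kb 0 of 120 H3K27ac bins were lost or gained at the TCF7 and VDAC1 locus, and at LEF1 3 of 120 were lost and 10 gained (7.19% and 2.03% of all bins).

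The LEF1 window as a whole had slightly less H3K27ac in shSATB1, at 77.2 and 74.4 kb in shCtrl and 69.0 and 65.2 kb in shSATB1. By this length both shSATB1 libraries lay below both shCtrl libraries, as they did in 52.8% of 15409 genes with H3K27ac. The whole H3K27ac lists covered 53.8 and 52.0 Mb in shCtrl and 46.5 and 41.0 Mb in shSATB1. As a share of each list's own covered length the direction turned. The LEF1 window held 0.144% and 0.143% in shCtrl and 0.148% and 0.159% in shSATB1. The TCF7 and VDAC1 locus held 0.194% and 0.200% against 0.223% and 0.238%, and neither share was tested. With 2 against 2 libraries an exact permutation p cannot be below 0.333.

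Genes of the pathway were counted within 2 kb of an annotated end. Of 20 genes of the TCF/LEF family and the nuclear beta-catenin complex 7 had a SATB1 region of both lists, against 24.6% of all genes. Those with the highest mean percentile of SATB1 maximum signal were TLE4 (99.0), LEF1 (92.0), CTNNBIP1 (89.7), an inhibitor of beta-catenin binding, and TLE3 (85.5). TLE3 and TLE4 are corepressors of TCF and LEF proteins. TCF7L2, a family member, had SATB1 at an end (65.7) and TCF7L1 had none. H3K27ac was at an end of 13 genes in both shCtrl libraries and of 13 in both shSATB1 libraries (38.8% and 36.9% of all genes). CTCF was present at 17 in shCtrl and 12 in shSATB1 (58% and 37.9%), and a lost CTCF region lay at the ends of 3, TCF7L1, TCF7L2 and CTNNB1 (8.58%), the last encoding beta-catenin.

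Among 32 Wnt receptors, destruction complex members and feedback genes, 10 had SATB1 at an end (24.6% of all genes). The highest were GSK3B (97.3), GSK3A (92.8) and CSNK1A1 (82.2), kinases of the beta-catenin destruction complex, and DVL3 (72.7), which relays the receptor signal. H3K27ac was at 8 in shCtrl and 10 in shSATB1 (38.8% and 36.9% of all genes). CTCF was at 24 and 20 (58% and 37.9%), with a lost region at 1 (8.58%). Among 20 VDAC channels and outer membrane partners 9 had SATB1 at an end (24.6% of all genes). They were led by TOMM40 (96.4), the pore of the protein import complex, BAK1 (82.1), a pro-apoptotic BCL2 family member, VDAC1 (80.2) and the import receptor TOMM70 (77.1). For VDAC1 this is the annotated 5′ end of the body, 43.5 kb from its nearest start site in the promoter table. The SATB1 region there lay within the TCF7 body as well, 1.2 kb before the upstream TCF7 start. No VDAC1 promoter in that table, shown or not shown, overlapped SATB1. VDAC2 and VDAC3, the paralogues of VDAC1, also had SATB1 at an end, at 62.7 and 21.8. H3K27ac was at 15 of these genes in shCtrl and 12 in shSATB1 (38.8% and 36.9% of all genes). CTCF was at 17 and 14 (58% and 37.9%), with a lost region at 1 (8.58%), BAX.

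By the share of the gene body covered in each of the 14 lists, the genes most like LEF1 were SPTBN1, HIPK1 and CD1B, with mean absolute differences of 3.69, 3.88 and 4.14 percentage points among 10984 genes of at least 20 kb. Those most like VDAC1 were C6orf89 (3.46), CD247, which encodes a chain of the T cell receptor complex (3.47), and MYO7B (3.61). TCF7 had no gene as near. GRK2, FGR and FAM53B came closest, at 13.1, 15.6 and 18.7 points. The 14 lists include those of H3K27ac, on which the 3 genes were selected. The distance of TCF7 from other genes is therefore a description only.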

How the data were processed

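The 14 deposited lists hold 1 line per peak with its position, its total signal (coverage added up across the peak) and its maximum signal. These are the authors' values as deposited, whole numbers with no scaling recorded. SEACR, MACS2, Bowtie2, Trim Galore, deepTools and SAMtools were used on GRCh38, per the submitters' processing notes, and no versions are named. Peaks were called per sample. Calling parameters and control libraries are not given in the sources used here.

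Of 273747 peaks, 273342 lay on the autosomes or X and were used. Peaks of compared libraries sharing 1 bp were merged into regions. A region was lost if called in every shCtrl and no shSATB1 library, and gained in the reverse case. Covered length and peak number per window were compared by two-sided exact permutation tests with Benjamini-Hochberg adjustment over 6. Genes, bodies and promoters came from RefSeq GRCh38.p14 tables without exon models, so exons and introns were not told apart, and positions are 1-based. All 108 gene symbols of the lists matched.

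Genes named were the 3 genes, protein-coding genes touching their windows, TCF7L1, TCF7L2, VDAC2, VDAC3, up to 4 members per pathway list carrying SATB1 at an end with the top mean percentiles, the 3 most alike genes each, and BCL11B and CDK6 for comparison. CTNNB1, BAX and LEF1-AS1 were named after their values were seen. Members and lists were chosen with earlier results of these data known, and so was the domain. The split of CTCF by H3K27ac and the CTCF ratios between the 2 loci were added after seeing the data. Alternatives were other windows, lists of equal length, a stricter selection, other region rules, each library left out and a block for replicate numbers. Software was matplotlib 3.10.9, scipy 1.17.1, pandas 2.3.3 and numpy 2.4.6 under Python 3.11.15, and the scripts were tested on simulated lists.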

Additional observations from a re-analysis of the deposited data

How the results depend on the processing

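CTCF-covered length kept its direction in all 3 windows with narrower windows, lists of equal length, the upper 50% of each list and each library left out. As a share of the list's own covered length, chosen after seeing the data, the shSATB1 minus shCtrl difference turned positive at TCF7 (0.0282 percentage points) and VDAC1 (0.0239). The difference in CTCF peak number turned at TCF7 in the upper 50% of each list (-1.67) and at VDAC1 in the upper 50% (-4) and in the gene body alone (-1). No test passed 0.05 in any setting, and none could. Deviations of same-numbered libraries were nearly uncorrelated (-0.0037, -0.0096 and 0.018). Those of differently numbered libraries were too (-0.0243 to 0.0276), so these values cannot tell whether the numbers pair libraries. With the replicate block the differences in length stayed -50.3, -57.6 and -46.0 kb. Each had p = 0.25, the smallest an exact sign-flip test of 3 pairs allows. Lost CTCF regions at the TCF7 and VDAC1 locus numbered 5 with cover of at least 50%, 1 with windows of 500 bp, 1 with lists of equal length and 27 as bins, and 2 to 3 with each library left out. At LEF1 they numbered 5 with cover of at least 50% and 23 as bins, and 2 to 5 with each library left out (4 without shCtrl replicate 3 and 5 without shSATB1 replicate 3). LEF1 H3K27ac regions lost numbered 1 with cover of at least 50% and 3 as bins. They numbered 0 to 3 with each library left out (3 without shCtrl replicate 2). Those gained numbered 2 with cover of at least 50%, 2 with lists of equal length and 10 as bins. With each library left out the gained regions numbered 3 to 5 (5 without shSATB1 replicate 2). The H3K27ac difference in the domain ranged from -6.98 kb without shSATB1 replicate 1 to 0.69 kb without replicate 2. Counted anywhere in the body, 11 of the TCF/LEF genes had SATB1. The cause of these shifts was not tested. Read depth is unknown, so a missing peak is a peak not called.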
